A study of Mus musculus with 6 samples.

Results

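The genes described here are 36 interferon-stimulated effector genes of the mouse, the genes that carry out the antiviral work of an interferon response. They were chosen by symbol, as effectors that interferon induces, leaving out the regulators of the response and the MHC class I genes. All 36 were found among the 48709 gene identifiers of a count table of cerebellar messenger RNA, and 35 of them passed the filter on low counts that left 16699 genes for testing. Oas3, the member that did not pass, had 13, 20 and 7 counts in the knock-in samples, against 11, 6 and 8 counts in the wild-type samples.

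The study compared cerebella of SCA7 knock-in mice with wild-type cerebella. SCA7, or spinocerebellar ataxia type 7, is an inherited ataxia in which a CAG repeat in the ATXN7 gene is too long. The knock-in group held 3 samples whose genotype is given as SCA7 140Q/5Q knock-in, with titles that carry the tag Kihet, and it was set against 3 wild-type samples. Both groups were C57BL/6J mice aged 40 weeks, and mRNA was sequenced from frozen cerebella with a strand-preserving library kit. The labels give no treatment, and they do not say that the samples came from separate animals, so a p-value here reflects only how these 6 samples vary, part of which may be technical.

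The libraries held between 34630391 and 49127673 counts, and 99.94% to 99.95% of each lay on the genes tested. Markers of the labelled tissue were abundant: 10 Purkinje cell genes had a sum of 8749 to 10480 CPM (counts scaled to a common library size) in knock-in cerebella, against 13400 to 15200 CPM in wild-type cerebella. The sums of 8 granule neuron genes were 3171 to 3841 CPM in knock-in and 3858 to 4250 CPM in wild type. In bulk tissue, fewer cells of a type and less RNA per cell cannot be told apart. Atxn7 itself had a log2 fold change of -0.12 ± 0.09 (SE), with an edgeR adjusted p of 0.52, and counts per gene do not separate its alleles, which leaves the genotype labels unchecked. The scaling uses the library size times a TMM factor. A fold change is knock-in over wild type, and a gene was called at a Benjamini-Hochberg adjusted p at or under 0.05 over all genes tested.

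Interferons are secreted proteins that bind receptors on the cell surface and start JAK-STAT signalling. For type I interferon this yields a complex with Irf9 that binds the interferon-stimulated response element (ISRE) in promoters, and interferon gamma acts at the gamma-activated site (GAS). The induced effectors degrade or bind foreign RNA, block membrane fusion and budding of viruses, and tag proteins with ubiquitin-like modifiers. In the brain, microglia, astrocytes, endothelial cells and neurons can all express such genes.

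Promoter windows of 5 members are printed here as examples that hold the ISRE core: the 3 called members with a match (Bst2, Ifitm3 and Oas1a), and Isg15 and Ifit1, which were not called and were chosen for their matches. The called members Ifi35, Lgals3bp and Xaf1 had a window without the ISRE core. The windows come from RefSeq on GRCm38.p6, run from 250 bases before to 50 bases after the annotated start of the gene, and are written 5′ to 3′ on the strand of the gene. Capitals mark every match to the ISRE core (GAAA, any 2 bases, GAAA) on either strand, so that a match on the opposite strand reads TTTC, any 2 bases, TTTC. The windows are chr8:71537423-71537722 (minus strand) for Bst2, chr7:141010695-141010994 (minus strand) for Ifitm3, chr5:120907476-120907775 (minus strand) for Oas1a, chr4:156200769-156201068 (minus strand) for Isg15 and chr19:34640639-34640938 (plus strand) for Ifit1.
Bst2: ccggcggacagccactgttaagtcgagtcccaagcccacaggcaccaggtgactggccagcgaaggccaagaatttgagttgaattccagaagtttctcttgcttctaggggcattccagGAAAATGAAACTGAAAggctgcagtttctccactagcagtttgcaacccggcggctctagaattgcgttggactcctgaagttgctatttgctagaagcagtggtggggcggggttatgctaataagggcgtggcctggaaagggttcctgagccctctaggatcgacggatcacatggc
Ifitm3: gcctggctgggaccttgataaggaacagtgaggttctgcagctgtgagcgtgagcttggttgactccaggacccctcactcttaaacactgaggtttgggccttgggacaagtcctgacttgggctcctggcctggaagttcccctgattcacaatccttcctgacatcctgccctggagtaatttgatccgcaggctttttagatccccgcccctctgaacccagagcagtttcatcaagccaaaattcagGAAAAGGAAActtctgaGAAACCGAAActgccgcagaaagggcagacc
Oas1a: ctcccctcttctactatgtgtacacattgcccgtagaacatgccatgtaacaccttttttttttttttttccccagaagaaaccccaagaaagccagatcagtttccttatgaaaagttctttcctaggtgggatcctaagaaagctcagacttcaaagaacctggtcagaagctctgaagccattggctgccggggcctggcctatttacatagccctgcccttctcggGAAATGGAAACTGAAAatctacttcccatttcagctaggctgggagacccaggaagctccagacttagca
Isg15: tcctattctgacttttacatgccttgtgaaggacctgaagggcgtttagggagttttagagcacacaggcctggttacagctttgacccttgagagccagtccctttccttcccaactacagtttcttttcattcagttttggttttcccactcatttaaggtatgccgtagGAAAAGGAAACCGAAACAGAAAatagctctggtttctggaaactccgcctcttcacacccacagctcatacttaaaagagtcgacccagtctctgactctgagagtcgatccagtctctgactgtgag
Ifit1: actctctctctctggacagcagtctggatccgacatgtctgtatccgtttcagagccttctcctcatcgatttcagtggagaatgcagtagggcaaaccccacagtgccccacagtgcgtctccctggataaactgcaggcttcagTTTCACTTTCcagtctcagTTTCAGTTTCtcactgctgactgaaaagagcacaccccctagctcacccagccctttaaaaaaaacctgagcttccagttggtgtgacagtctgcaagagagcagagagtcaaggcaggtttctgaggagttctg
In Bst2 the first base of the matches lay 130 and 124 bases before the start and the matches shared bases. In Oas1a, overlapping matches began 20 and 14 bases before the start. Isg15 had 3 matches in 1 run, beginning 78, 72 and 66 bases before the start. Ifit1 had 2 separate matches on the opposite strand, whose first bases lay 104 and 85 bases before the start. In Ifitm3 both matches lay after the annotated start.

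An entry was found for 27 of the 36 members. The ISRE core was present in 16 of these 27 (59.26%), against 3.993% of the 27025 genes in the same table, counted in the same way. The longer form, with CT after the second GAAA, was present in 12 of 27 (44.44%), against 0.303% of all genes. The GAS letters (TTC, any 3 bases, GAA), read on both strands, were present in 9 of 27 (33.33%), against 9.554% of all genes. Matches to the ISRE core overlapped each other in 5 members (Bst2, Gbp3, Irgm1, Isg15 and Oas1a), and an ISRE match overlapped a GAS match in Bst2 and Ifitm3. Among the members with an entry, 3 of 6 called ones and 12 of 20 tested ones that were not called had the ISRE core. The median log2 fold change was 0.85 for tested members with the ISRE core and 0.78 for tested members without it. A match describes letters only, and is neither a bound site nor a cause. Dhx58, Ifi27, Ifi27l2a, Mx1, Oas2, Parp14, Parp9, Rtp4 and Zbp1 had no entry.

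In knock-in cerebella 9 effector genes rose and 0 fell. The 9 were Ifi27l2a, Rtp4, Oas1a, Lgals3bp, Bst2, Ifi27, Xaf1, Ifi35 and Ifitm3, against 0.629% of all tested genes called higher and 1.28% called lower. The fold change was above 0 in 34 of 35 tested members (51.3% of all tested genes), and the unadjusted edgeR p was under 0.05 with a higher level in knock-in for 29 of 35 (9.81% of all tested genes). The median log2 fold change was 0.85 over the tested members and 0.01 over all tested genes. All 3 knock-in values lay above all 3 wild-type values in 21 of 35 members (12.3% of all tested genes), and all 3 below in 0 (11.5%). The number of called members depended on single libraries: it was 2 without knock-in replicate 1 (0.0414% of all tested genes called higher), 13 without knock-in replicate 2 (2.04%) and 6 without knock-in replicate 3 (0.124%). It was 2 without wild-type replicate 1 (0.047%), 3 without wild-type replicate 2 (0.152%) and 2 without wild-type replicate 3 (0.088%). Ifi27 and Ifi27l2a were called in each of these 6 fits. With knock-in replicate 2 as the only knock-in sample, a fit added after the data were examined, the median log2 fold change of the members was 0.74, and 3 of them (Bst2, Ifi27l2a and Lgals3bp) were called (0.04% of all tested genes called higher). The count also moved with the method, in both directions: limma-voom called 6 members higher (0.467% of all tested genes), RLE scaling gave 8 (0.539%) and a filter of CPM of at least 1 in 3 libraries gave 9 of 31 (0.604%). Upper quartile scaling gave 11 (0.856%), GC and length offsets 12 (1.22%) and scaling by library size alone 13 (1.93%). DESeq2 called 19 (2.47%), edgeR with no filter on low counts called 29 of 36 (2.49%), and an adjusted p at or under 0.10 took 14 (1.81%). With library size alone the calls over all tested genes split into 323 higher and 190 lower, against 105 higher and 213 lower with TMM scaling.

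**Figure D1:**
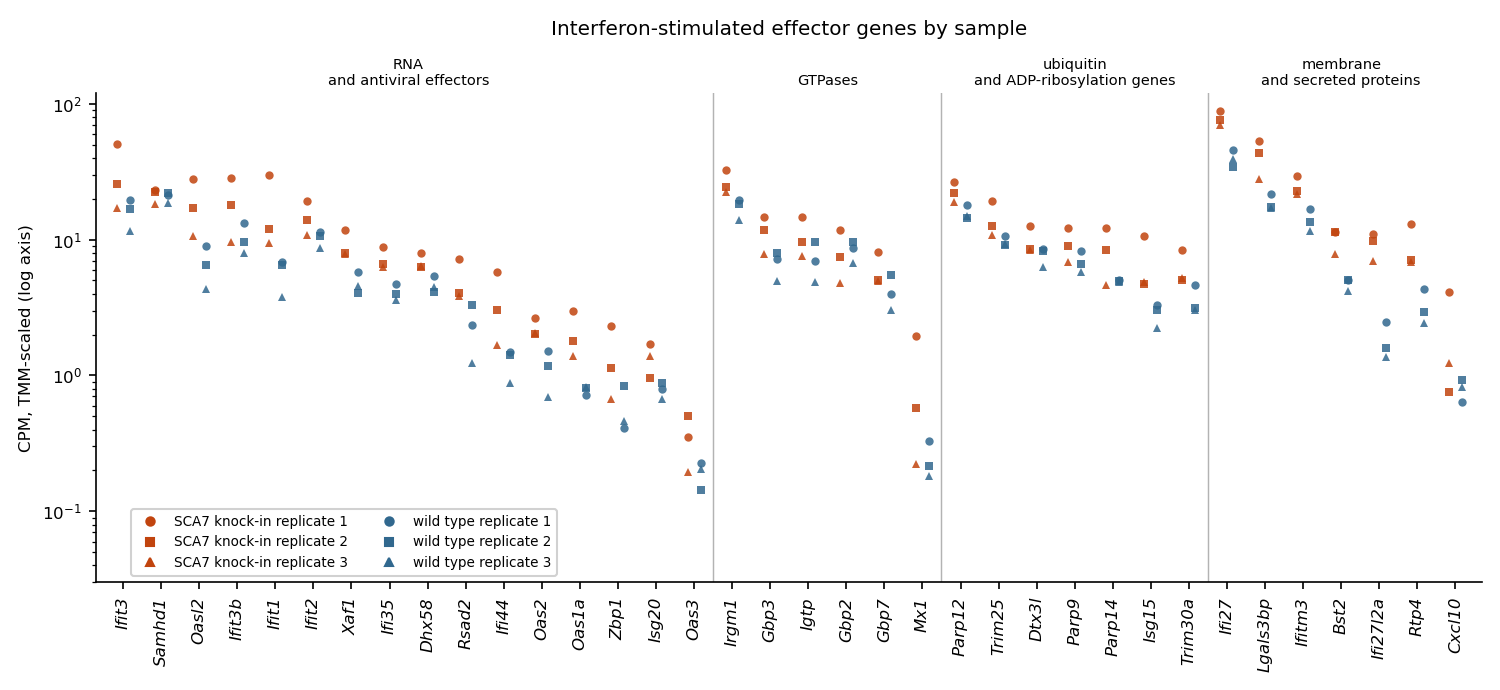
Level of each of the 36 members in each sample, as TMM-scaled CPM on a log axis, with knock-in samples in orange to the left of wild-type samples in blue and a symbol shape for each replicate number. Members are grouped by role and ordered by level; knock-in replicate 1 (orange circles) is the highest sample in every tested member.

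**Figure D2:**
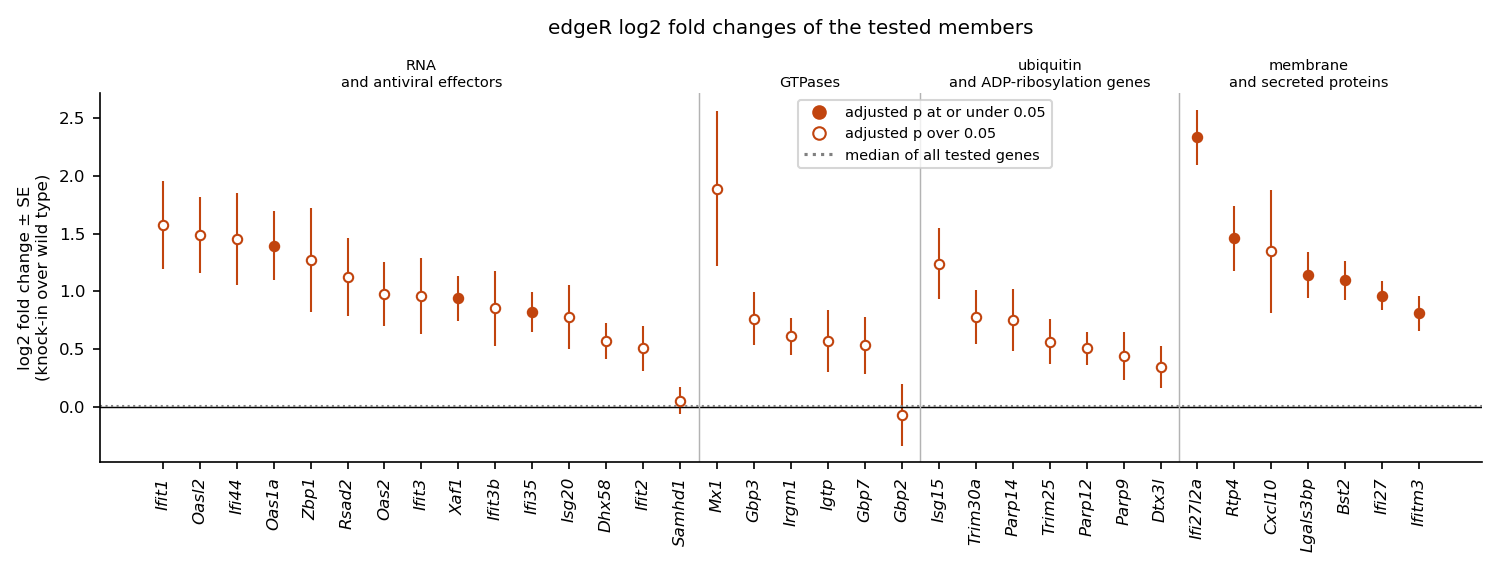
Log2 fold change (knock-in over wild type) of the 35 tested members, with bars of 1 SE from the edgeR fit; filled points have an adjusted p at or under 0.05. The 9 filled points lie between 0.81 (Ifitm3) and 2.34 (Ifi27l2a), and Gbp2 is the only member with a point below 0 (0.0078 with scaling by library size alone).

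The 7 membrane and secreted proteins held 6 of the 9 called members (0.629% of all tested genes called higher). Ifi27l2a encodes a small hydrophobic membrane protein of the Ifi27 family and lies on chromosome 12 (103442167 to 103443680, minus strand, mm10). Ifi27l2a had 10.9, 9.74 and 6.99 CPM in the knock-in samples, against 2.46, 1.60 and 1.37 CPM in the wild-type samples. The lowest knock-in sample was above the highest wild-type sample, and the log2 fold change of 2.34 ± 0.24 (SE) was the largest of the 35, with an edgeR adjusted p of 0.00175. Its neighbour Ifi27 (chromosome 12, 103434211 to 103440239, plus strand), of the same family, had 88.1, 75.8 and 69.3 CPM in the knock-in samples, against 45.9, 34.2 and 39.3 CPM in the wild-type samples. The groups lay well apart, with a log2 fold change of 0.96 ± 0.12 and an adjusted p of 0.00537. Of the 50-base windows of their transcripts, 0.48% for Ifi27l2a (shared with Ifi27l2b) and 0% for Ifi27 were shared with another gene. Per kilobase of exon, Ifi27 had the highest level of the set: 53.0 CPM per kilobase in knock-in and 27.1 CPM per kilobase in wild type.

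Bst2 encodes tetherin, which holds budding virus particles at the cell surface, and lies on chromosome 8 (71534255 to 71537456, minus strand). Its levels were 11.4, 11.3 and 7.83 CPM in the knock-in samples, against 5.04, 5.03 and 4.21 CPM in the wild-type samples. Knock-in replicates 1 and 2 were almost level, replicate 3 was lower but still above every wild-type sample, and the log2 fold change was 1.09 ± 0.17 with an adjusted p of 0.0141. Lgals3bp, a secreted galectin-binding glycoprotein, had 53.4, 43.0 and 27.99 CPM in the knock-in samples, against 21.7, 17.5 and 17.2 CPM in the wild-type samples. The knock-in samples spread widely without reaching the wild-type range, and the log2 fold change was 1.142 ± 0.20 with an adjusted p of 0.0223. Ifitm3 encodes a membrane protein that hinders the fusion of viruses in endosomes. Its levels were 29.1, 22.8 and 21.6 CPM in the knock-in samples, against 16.9, 13.5 and 11.6 CPM in the wild-type samples, with no overlap. Its log2 fold change of 0.81 ± 0.15 was the smallest of the group, with an adjusted p of 0.0307, and 10.02% of its transcript windows were shared with other annotated genes. The calls depended on single samples, as did calls over all tested genes. The share of all tested genes called higher was 0.629% with all 6 samples. It was between 0.0414% and 0.152% when 1 sample other than knock-in replicate 2 was left out. Bst2 was not called without knock-in replicate 1, wild-type replicate 1 or wild-type replicate 3 (adjusted p 0.0584 to 0.0794), Lgals3bp without knock-in replicate 1 or any 1 wild-type sample (0.0798 to 0.0908), and Ifitm3 when any 1 sample other than knock-in replicate 2 was left out (0.0509 to 0.124).

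Rtp4, a chaperone of G-protein-coupled receptors, had 13.0, 7.10 and 6.79 CPM in the knock-in samples, against 4.34, 2.94 and 2.43 CPM in the wild-type samples. Knock-in replicate 1 was far above the other two, all 3 were above wild type, and the log2 fold change was 1.46 ± 0.28 with an adjusted p of 0.0312. The call was lost when any 1 sample other than knock-in replicate 2 was left out (adjusted p 0.0536 to 0.105). Rtp4 overlaps Masp1 on the opposite strand, and the strand setting of the counting is not stated. Rtp4 also shared 11.63% of its transcript windows with Gm45338 on the same strand, which had 68 counts over all libraries. Cxcl10, a chemokine that attracts T cells, was the member of this group that was not called. Its levels were 4.11, 0.753 and 1.23 CPM in the knock-in samples, against 0.635, 0.931 and 0.827 CPM in the wild-type samples. Only knock-in replicate 1 stood far out and replicate 2 was no higher than wild type, and the log2 fold change of 1.35 ± 0.53 had an adjusted p of 0.223.

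The 16 RNA-directed and other antiviral effectors held 3 called members among the 15 tested (0.629% of all tested genes called higher). All 15 had a fold change above 0 (51.3% of all tested genes), with a median log2 fold change of 0.96. Oas1a, an oligoadenylate synthetase whose product activates RNase L, had 3.004, 1.81 and 1.39 CPM in the knock-in samples, against 0.717, 0.811 and 0.827 CPM in the wild-type samples. Its wild-type values were tight and the knock-in values all lay above them, with a log2 fold change of 1.40 ± 0.30 and an adjusted p of 0.0473. Because 57.57% of its transcript windows were shared with other genes, mainly Oas1g, its count is uncertain. Xaf1, named for its binding of the apoptosis inhibitor XIAP, had 11.8, 7.93 and 7.85 CPM in the knock-in samples, against 5.80, 4.03 and 4.52 CPM in the wild-type samples. The groups did not overlap, and the log2 fold change was 0.94 ± 0.20 with an adjusted p of 0.0427. Ifi35, a partner of the interferon-induced protein Nmi, had 8.88, 6.55 and 6.29 CPM in the knock-in samples, against 4.69, 3.98 and 3.62 CPM in the wild-type samples. Again the groups did not overlap, with a log2 fold change of 0.82 ± 0.17 and an adjusted p of 0.0447. None of these 3 calls held with limma-voom (adjusted p 0.0717 for Oas1a, 0.0511 for Xaf1 and 0.0524 for Ifi35), Oas1a was also lost with RLE scaling (0.0524), and Ifi35 with GC and length offsets (0.0696). Leaving out any 1 sample other than knock-in replicate 2 ended all 3 calls, with adjusted p between 0.0528 and 0.181 for Oas1a, 0.0752 and 0.139 for Xaf1 and 0.0775 and 0.153 for Ifi35.

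The Ifit genes, whose proteins bind foreign RNA through tetratricopeptide repeats, lie in a cluster on chromosome 19 and were not called. Ifit1 (34640871 to 34650009, plus strand) had 29.6, 12.0 and 9.50 CPM in the knock-in samples, against 6.82, 6.47 and 3.797 CPM in the wild-type samples. The groups did not overlap, but knock-in replicate 1 lay far above the other knock-in samples, and the log2 fold change of 1.58 ± 0.38, the largest of the RNA-directed group, had an adjusted p of 0.0726. Ifit1 was called with upper quartile scaling, library size alone, GC and length offsets, no filter, the replicate block, or without knock-in replicate 2. Ifit3 had 50.5, 25.8 and 16.9 CPM in the knock-in samples, against 19.6, 16.7 and 11.6 CPM in the wild-type samples. Ifit3b had 28.3, 17.8 and 9.52 CPM in the knock-in samples, against 13.2, 9.59 and 7.93 CPM in the wild-type samples. In both, knock-in replicate 3 fell inside the wild-type range, and the log2 fold changes were 0.96 ± 0.33 and 0.85 ± 0.32 with adjusted p of 0.174 and 0.203. Ifit3 and Ifit3b share 51.24% and 44.54% of their transcript windows with each other, so their separate counts are uncertain. Ifit2 had 19.1, 13.9 and 10.8 CPM in the knock-in samples, against 11.4, 10.6 and 8.73 CPM in the wild-type samples. Its groups overlapped through knock-in replicate 3, and its log2 fold change of 0.51 ± 0.19 had an adjusted p of 0.205.

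Oasl2, an oligoadenylate synthetase-like protein, had 28.01, 17.2 and 10.6 CPM in the knock-in samples, against 9.01, 6.47 and 4.34 CPM in the wild-type samples. The groups did not overlap, and the log2 fold change of 1.49 ± 0.33 had an adjusted p of 0.0536, just over the threshold. Oasl2 was called with DESeq2, upper quartile scaling, library size alone, GC and length offsets, no filter on low counts and the replicate block. It was also called without knock-in replicate 2 or knock-in replicate 3. Samhd1, which hydrolyses deoxynucleotides and so limits viral DNA synthesis, had 23.2, 22.4 and 18.3 CPM in the knock-in samples, against 21.1, 21.9 and 18.6 CPM in the wild-type samples. Knock-in replicates 1 and 2 lay just above the wild-type values and replicate 3 just below them, and the log2 fold change of 0.05 ± 0.11 (adjusted p 0.843) was the smallest of the RNA-directed group. The other 6 tested members of this group had log2 fold changes between 0.57 (Dhx58, a RIG-I-like helicase) and 1.45 (Ifi44) and adjusted p between 0.099 and 0.184. Of these, Oas2, Rsad2 (viperin, which makes a chain-terminating nucleotide), Isg20 (an RNA exonuclease), Dhx58 and Ifi44 did not overlap between the groups, and Zbp1, a sensor of Z-form nucleic acids, did.

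None of the 6 interferon-inducible GTPases was called (0.629% of all tested genes called higher and 1.28% lower), and their median log2 fold change was 0.59. DESeq2 called Irgm1 and Gbp3 higher (2.47% of all tested genes). Irgm1, an immunity-related GTPase that acts on vacuoles and autophagy, had 32.6, 24.3 and 22.3 CPM in the knock-in samples, against 19.5, 18.3 and 14 CPM in the wild-type samples. It was the 1 GTPase of 6 with all 3 knock-in values above all 3 wild-type values (12.3% of all tested genes). The log2 fold change was 0.61 ± 0.16 with an adjusted p of 0.0906. Mx1, a dynamin-like GTPase against influenza-type viruses whose allele in C57BL/6 mice carries a deletion, had 1.95, 0.577 and 0.223 CPM in the knock-in samples, against 0.328, 0.215 and 0.181 CPM in the wild-type samples. These rest on 72, 23 and 8 counts in knock-in and 16, 9 and 7 counts in wild type, and the value of knock-in replicate 3 was inside the wild-type range. Knock-in replicate 1 stood far above all others, and the log2 fold change of 1.89 ± 0.67, the largest of the GTPases, had an adjusted p of 0.184. Gbp2, a guanylate-binding protein, had 11.7, 7.41 and 4.79 CPM in the knock-in samples, against 8.73, 9.62 and 6.69 CPM in the wild-type samples. Knock-in replicate 1 was the highest and replicate 3 the lowest of all 6, and the log2 fold change of -0.07 ± 0.27 had an adjusted p of 0.919 and was 0.0078 with scaling by library size alone. Gbp3, Gbp7 and Igtp had log2 fold changes between 0.53 and 0.76, and in all 3 wild-type replicate 2 was the highest wild-type sample.

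None of the 7 ubiquitin and ADP-ribosylation genes was called either (0.629% of all tested genes called higher and 1.28% lower). All 7 fold changes were above 0 (51.3% of all tested genes), with a median of 0.56 on the log2 scale. DESeq2 called Isg15, Parp12 and Trim30a higher (2.47% of all tested genes). Isg15, the ubiquitin-like modifier that is attached to proteins in an interferon response, had 10.6, 4.69 and 4.87 CPM in the knock-in samples, against 3.30, 3.01 and 2.22 CPM in the wild-type samples. The groups did not overlap, knock-in replicate 1 was far above the rest, and the log2 fold change of 1.24 ± 0.31 had an adjusted p of 0.078. Parp12, an ADP-ribosyltransferase, had 26.7, 22.1 and 18.8 CPM in the knock-in samples, against 18.0, 14.5 and 15.01 CPM in the wild-type samples. Its groups came close without overlap, and the log2 fold change of 0.51 ± 0.14 had an adjusted p of 0.101. Trim25, a ubiquitin ligase of RIG-I signalling, had 19.3, 12.6 and 10.8 CPM in the knock-in samples, against 10.6, 9.04 and 9.25 CPM in the wild-type samples. The lowest knock-in value lay just above the highest wild-type value, and the log2 fold change of 0.56 ± 0.19 had an adjusted p of 0.17. Dtx3l, a ubiquitin ligase that works with Parp9, had 12.6, 8.48 and 8.36 CPM in the knock-in samples, against 8.56, 8.23 and 6.30 CPM in the wild-type samples. The groups overlapped, and its log2 fold change of 0.35 ± 0.18 (adjusted p 0.349) was the smallest of the group. Parp9, Parp14 and Trim30a had log2 fold changes between 0.44 and 0.78 and adjusted p between 0.128 and 0.298. Dtx3l and Parp9 overlap each other on opposite strands. Parp9 also overlaps Gm15564 on the opposite strand, which had 5720 counts over all libraries, against 1952 counts for Parp9.

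Across the set the samples kept much the same order from gene to gene. Knock-in replicate 1 was the highest of the 6 samples in 35 of 35 tested members (15.6% of all tested genes). Knock-in replicate 2 was above all wild-type samples in 30 of 35 (29.6% of all tested genes), and knock-in replicate 3 in 22 of 35 (35.0%). The 36 members together summed to 625.6, 442.7 and 356.4 CPM in the knock-in samples, against 306.4, 268.6 and 229.7 CPM in the wild-type samples, so that the lowest knock-in sum lay above the highest wild-type sum. Set against the wild-type mean, the median member was 2.35-fold, 1.65-fold and 1.37-fold higher in knock-in replicates 1, 2 and 3. The members also differed among samples of the same genotype. Knock-in replicate 1 was above knock-in replicate 3 in 35 of 35 members, by a median of 0.84 on the log2 scale. Wild-type replicate 1 was above wild-type replicate 3 in 32 of 35, by a median of 0.44. For comparison, knock-in replicate 3 was above wild-type replicate 1 in 26 of 35, by a median of 0.25. Wild-type replicate 3 was the lowest wild-type sample in 27 of 35 (28.7% of all tested genes).

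**Figure D3:**
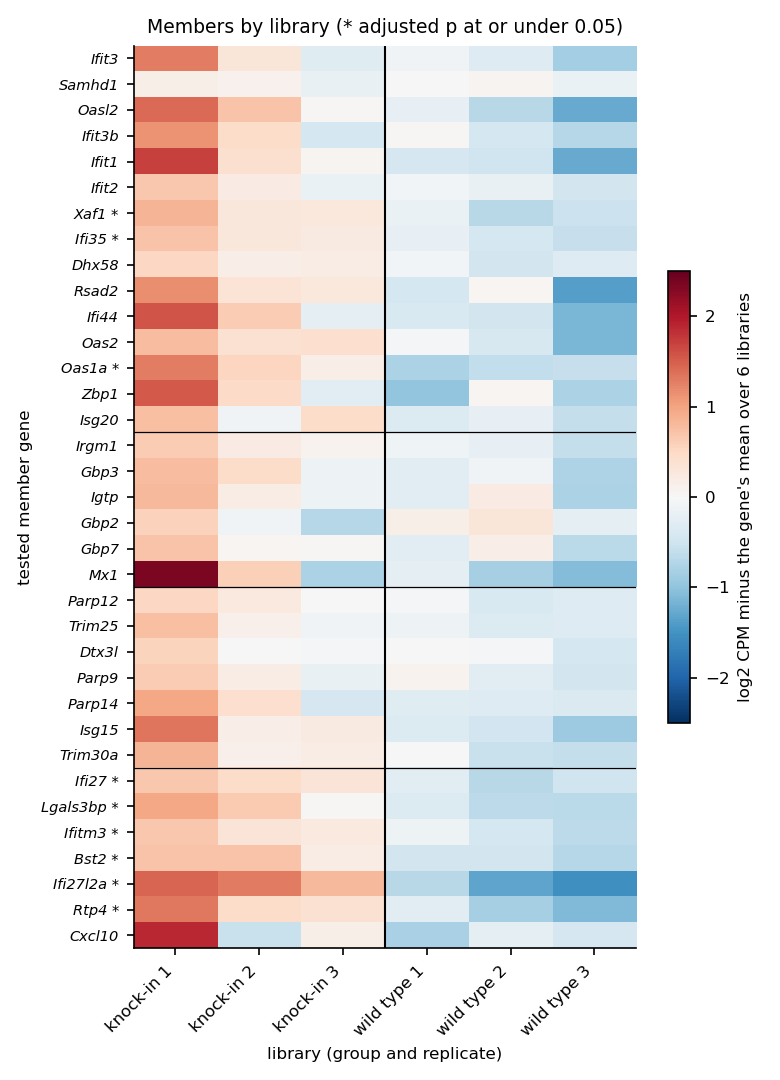
Each tested member (vertical axis, grouped by role with black lines) in each library (horizontal axis), as log2 CPM minus the mean of that gene over the 6 libraries; red is above and blue below the mean, and stars mark the 9 called members. Knock-in replicate 1 is red throughout, knock-in replicates 2 and 3 are paler, and wild-type replicate 3 is the bluest column, being the lowest of all 6 in 24 of 35 members.

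Markers of cells that could carry these genes were read in the same samples. The 16 microglia genes had 0 called and a median log2 fold change of 0.10, and summed to 431.1, 409.6 and 402.8 CPM in the knock-in samples, against 376.7, 376.0 and 409.5 CPM in the wild-type samples. The list was split, with 11 fold changes above 0 and 5 below. All 3 knock-in values lay above all 3 wild-type values in 5 of 16 (12.3% of all tested genes), and below in 1 (11.5%). DESeq2 called 2 microglia genes higher (2.47% of all tested genes) and 1 lower. The 10 endothelial genes had 0 called and a median of -0.13, and summed to between 319.5 and 363.5 CPM in knock-in and between 361.3 and 407.7 CPM in wild type. Their most abundant gene, Flt1, had 59.9, 67.3 and 53.6 CPM in knock-in, against 83.7, 82.2 and 77.5 CPM in wild type (adjusted p 0.0514). The 12 genes of blood monocytes, macrophages and neutrophils had 0 called and a median of -0.14, with sums between 25.15 and 28.42 CPM in knock-in and between 23 and 35.11 CPM in wild type. Genes of T and natural killer cells were low, and Cd3e had at most 2 counts in any sample. Their 13 genes summed to 4.818, 3.389 and 3.982 CPM in knock-in, against 3.79, 4.199 and 4.029 CPM in wild type. The most abundant of them, Trac, had 65, 69 and 63 counts in knock-in, against 114, 102 and 93 counts in wild type (adjusted p 0.213). Trac gave 1.76, 1.73 and 1.75 CPM of the sums in knock-in, against 2.34, 2.43 and 2.40 CPM in wild type. The other tested gene, Lck, ran the other way (adjusted p 0.582). It had 29, 23 and 21 counts in knock-in, against 18, 20 and 26 counts in wild type. The 6 genes of B and plasma cells summed to 3.843, 1.858 and 1.56 CPM in knock-in, against 2.069, 1.551 and 1.782 CPM in wild type.

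Other marker lists held called genes. Of 10 Purkinje cell genes 6 fell, and of 9 genes of astrocytes and Bergmann glia 4 fell (1.28% of all tested genes called lower). With each sample left out in turn, the count was between 2 and 6 for the Purkinje genes and between 0 and 6 for the astrocyte genes. At the low ends, 2 Purkinje genes were called without wild-type replicate 1 or knock-in replicate 1, and 0 astrocyte genes without wild-type replicate 3, knock-in replicate 1 or knock-in replicate 3. The number of all tested genes called lower moved as well, from 213 of 16699 with all 6 samples. It was 32 of 16928 without knock-in replicate 1, 39 of 17012 without wild-type replicate 1 and 510 of 17021 without knock-in replicate 2. Of 14 genes listed as brainstem neuron markers, 9 were tested. Of these, 2 rose (Slc18a2 and Hoxa7) and 0 fell, against 0.629% of all tested genes called higher and 1.28% called lower. The median log2 fold change of the 9 was 2.99, and 7 of 9 lay above 0 (51.3% of all tested genes). Knock-in replicate 1 was the highest sample in 7 of 9 (15.6% of all tested genes). Slc18a2, a vesicular monoamine transporter, had 16.5, 1.56 and 10.4 CPM in the knock-in samples, against 0.41, 1.46 and 0.258 CPM in the wild-type samples. Hoxa7, a homeobox gene, had 0.433, 0.377 and 0.418 CPM in the knock-in samples, against 0, 0.0239 and 0.0258 CPM in the wild-type samples. In both genes all 3 knock-in samples were above all wild-type samples, narrowly so for knock-in replicate 2 in Slc18a2. Their calls were lost with single samples left out: Slc18a2 when any 1 sample other than knock-in replicate 2 was left out (and with limma-voom), and Hoxa7 without wild-type replicate 1 or knock-in replicate 1. Hoxa7 rests on 16, 15 and 15 counts in knock-in, against 0, 1 and 1 counts in wild type. It passed the filter only through the knock-in samples, so its call and fold change, which enter the list values, are not support for a difference. With a filter of CPM of at least 1 in 3 libraries, 6 of the 14 genes were tested and 1 was called higher (0.604% of all tested genes). Without knock-in replicate 2, 9 of 13 tested brainstem genes were called higher (2.04% of all tested genes). The 14 brainstem genes summed to 140.1, 75.54 and 106.3 CPM in the knock-in samples, against 85.98, 90.07 and 94.3 CPM in the wild-type samples. Slc6a5 alone gave 58.5, 59.5 and 52.7 CPM of these sums in knock-in, against 69.9, 67.1 and 76.5 CPM in wild type. Th gave 15.97, 7.355 and 14.84 CPM in knock-in, against 13.36, 15.44 and 14.65 CPM in wild type. Slc6a5 and Th were the 2 of the 9 tested genes with a fold change below 0. Both had at least 7.355 CPM in every sample. Whether each listed gene marks tissue outside the cerebellum was not checked. Knock-in replicate 2 had the lowest sum, but Slc6a5 and Th made up most of it, so it says little about the other genes. Knock-in replicate 2 was above all wild-type samples in 4 of the 9 tested genes (29.6% of all tested genes). The 9 choroid plexus and ependyma genes summed to 289.3, 34.77 and 1331 CPM in knock-in, against 539.7, 518.8 and 1920 CPM in wild type. The part of the Purkinje, astrocyte, brainstem and choroid plexus differences in the effector genes was not tested.

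Upstream of the effectors, the interferons themselves were at or near 0 counts. All 20 interferon genes listed were in the table and none passed the filter. Of these, 18 had 0 counts in every sample, and Ifng and Ifnab had at most 1 count in any sample. At this depth a level under 3 counts per library could not be told from 0.

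Among 39 receptors, sensors and regulators, 38 were tested, 3 rose, 0 fell and the median log2 fold change was 0.17. Over all tested genes 0.629% were called higher and 1.28% lower. The fold change was above 0 in 26 of 38 (51.3% of all tested genes). Irf7, a transcription factor for the interferon genes themselves, had 28.6, 20.7 and 17.5 CPM in the knock-in samples, against 5.68, 6.94 and 4.11 CPM in the wild-type samples. The groups lay far apart, with a log2 fold change of 1.99 ± 0.21 and an adjusted p of 0.00222. Usp18, which removes Isg15 from proteins and dampens the receptor, had 17.5, 8.31 and 6.63 CPM in the knock-in samples, against 3.30, 3.32 and 1.70 CPM in the wild-type samples. Irf9, the DNA-binding subunit of the complex at the ISRE, had 39.9, 29.8 and 19.2 CPM in the knock-in samples, against 17.3, 13.3 and 11.7 CPM in the wild-type samples. Neither gene overlapped between the groups, and the log2 fold changes were 1.95 ± 0.36 (adjusted p 0.0265) for Usp18 and 1.07 ± 0.23 (adjusted p 0.0492) for Irf9. Irf9 was not called with RLE scaling (0.0557), limma-voom (0.0717) or a filter of CPM of at least 1 in 3 libraries (adjusted p 0.0523). Without knock-in replicate 1 or any 1 wild-type sample neither was called, with adjusted p between 0.0643 and 0.103 for Usp18 and between 0.101 and 0.152 for Irf9. The most abundant gene of the list, the kinase Jak1, had 197.9, 193.7 and 177.4 CPM in the knock-in samples, against 225.6, 223.1 and 211.7 CPM in the wild-type samples, with an adjusted p of 0.178.

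Of 63 further interferon-induced genes outside the set, 57 were tested, 2 rose, 0 fell and the median log2 fold change was 0.49. Over all tested genes 0.629% were called higher and 1.28% lower. The fold change was above 0 in 50 of 57 (51.3% of all tested genes). All 3 knock-in values lay above all 3 wild-type values in 23 (12.3%), and below in 0 (11.5%). Oas1b, a paralogue of Oas1a, had 3.52, 1.93 and 1.45 CPM in the knock-in samples, against 0.778, 0.382 and 0.775 CPM in the wild-type samples (log2 fold change 1.83 ± 0.38, adjusted p 0.0417). Oas1b is among the genes that share transcript windows with Oas1a, so its separate count is uncertain too. Ifi203, a PYHIN family protein, had 5.06, 4.19 and 4.12 CPM in the knock-in samples, against 2.83, 2.22 and 2.25 CPM in the wild-type samples (log2 fold change 0.87 ± 0.17, adjusted p 0.0364). In both genes the groups did not overlap. Both calls were lost when any 1 sample other than knock-in replicate 2 was left out (adjusted p 0.0528 to 0.137 for Oas1b and 0.0773 to 0.142 for Ifi203), and that of Oas1b with limma-voom (0.0614).

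Of 16 MHC class I antigen presentation genes 1 rose (0.629% of all tested genes). All 16 had a fold change above 0 (51.3% of all tested genes), with a median of 0.50 on the log2 scale. The called gene was Psme1, an activator subunit of the proteasome, with 31.4, 26.3 and 32.4 CPM in the knock-in samples, against 17.4, 19.5 and 21 CPM in the wild-type samples (log2 fold change 0.64 ± 0.11, adjusted p 0.0221). It was not called when any 1 sample other than knock-in replicate 2 was left out (adjusted p 0.0584 to 0.105). The order of the samples differed from that of the effectors. Knock-in replicate 1 was the highest of 6 in 10 of 16 MHC class I genes and in 35 of 35 effectors, and wild-type replicate 3 was the lowest wild-type sample in 2 of 16 and in 27 of 35. This difference in order was not tested.

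**Figure D4:**
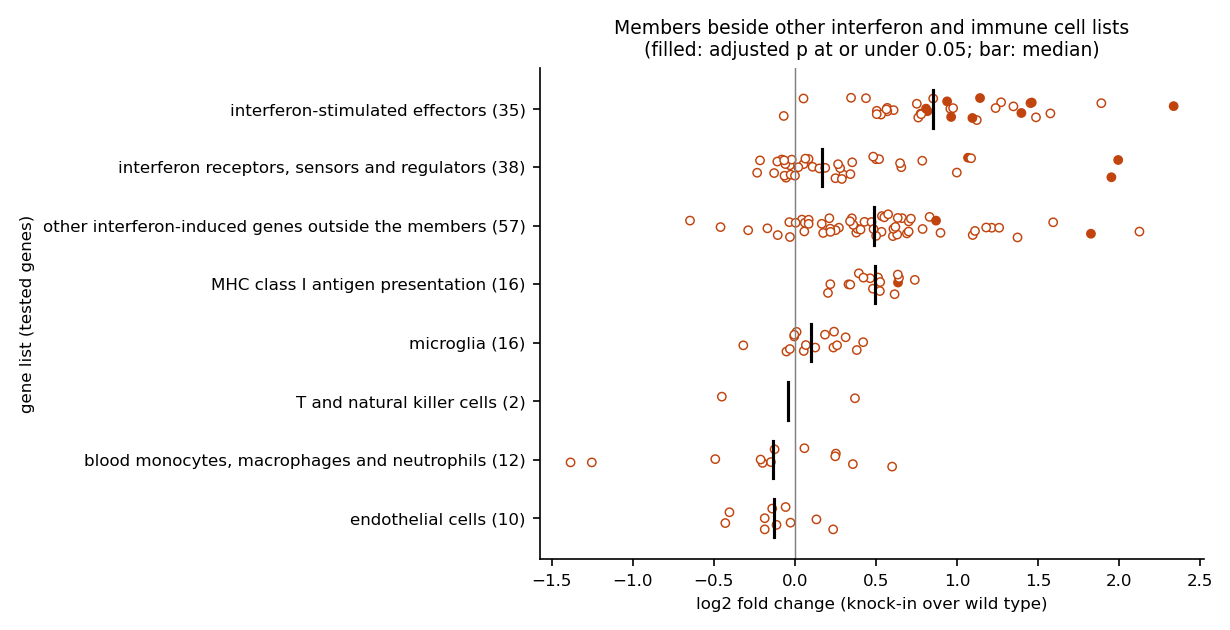
Log2 fold change (knock-in over wild type, horizontal axis) of every tested gene in the effector set and in 7 comparison lists (vertical axis, with the number tested); filled points have an adjusted p at or under 0.05 and black bars are medians. The effector median of 0.85 lies to the right of the medians of the MHC class I genes (0.50), the other induced genes (0.49), the regulators (0.17) and the microglia genes (0.10).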

How the data were processed

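The authors deposited raw read counts per Ensembl gene for 6 libraries. The submitters' processing notes name HTSeq 0.6.1, Bowtie2 2.1.0, TopHat2 2.0.14 and bcl2fastq 2.17.1.14, with mm10 as the build. Neither the annotation release nor the strand setting is given in the sources used here. Genes overlapping on opposite strands are therefore uncertain, Dhx58 (with Dhx58os) and Cxcl10 (with Art3) among them. Symbols and coordinates came from GENCODE M21, which matched 48349 of 48709 identifiers.

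Genotypes were compared in R 4.3.3 with the quasi-likelihood F test of edgeR 4.0.16, on genotype alone, after filterByExpr (counts of at least 10, totals of at least 15) and TMM scaling, with Benjamini-Hochberg adjustment over 16699 genes. The SE is the size of the log2 fold change over the root of F. The procedure was run on simulated counts, drawn independently for each gene with the same dispersion for every gene. Those counts differ from members that vary together between libraries, so no conclusion about the calls is drawn from them. The members, the marker and pathway lists and the promoter motifs were chosen with earlier results of these data known. Full values were set out for called members, for members whose mean CPM reached 10, for the extremes of each role group, and for the called genes or the most abundant gene of the pathway lists. Other values were chosen after they were seen. A few listed genes are not reported here, but remain in the counts and sums of their lists. Shared sequence was counted over 50-base windows of GENCODE M21 transcripts.

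Chi-square statistics per degree of freedom between replicates were 14.01 to 30.21, so each library counted as 1 sample. Samples with the same replicate number had deviations that correlated at -0.0028, 0.166 and 0.307, so the numbers were not treated as pairs. Alternatives covered scaling, the filter, DESeq2 1.42.0, limma-voom (limma 3.58.1), the replicate block, GC and length offsets (mgcv 1.9.3), the threshold, each sample left out and, added after the data were examined, knock-in replicate 2 alone, which is assumed to vary like the wild-type samples.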

Additional observations from a re-analysis of the deposited data

How the results depend on the processing

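The direction of the set was the same throughout: 0 members were called lower in any alternative, and the median log2 fold change of the members lay between 0.58 and 1.04 when each sample was left out in turn and at 0.74 with knock-in replicate 2 alone. The number of called members was less stable. It was 6 with limma-voom, 8 with RLE scaling, 29 with no filter on low counts, 19 with DESeq2, 14 at an adjusted p at or under 0.10, 3 with knock-in replicate 2 alone, and between 2 and 13 when each sample was left out. Over all tested genes the count of 318 became 513 with library size alone, 1303 with no filter, 934 with DESeq2, 691 with GC and length offsets, 23 with knock-in replicate 2 alone, 721 at the threshold of 0.10, and between 39 and 858 when each sample was left out. With library size alone the calls split into 323 higher and 190 lower, against 105 higher and 213 lower, and the median of all genes moved to 0.08. The cause of these changes was not tested.

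The replicate number as a block gave 26 called members and 2034 called genes (6.14% of all tested genes called higher). The numbers are not known to pair the samples. Knock-in replicates 2 and 3 correlated best with the wild-type samples of the same number (0.166 and 0.307). Knock-in replicate 1 correlated best with wild-type replicate 3 (0.0496, against -0.0028 with wild-type replicate 1).

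Among the members and the 16 alternative fits, changes of sign were limited to Gbp2, Samhd1 and Cxcl10, none of which was called in the full comparison. The log2 fold change of Gbp2 was 0.0078 with library size alone, and lay between -0.44 and 0.20 when each sample was left out. That of Samhd1 lay between -0.026 and 0.16 when each sample was left out, and that of Cxcl10 was -0.059 with knock-in replicate 2 alone. Low counts limit Mx1 and Oas3, with 7 and 6 counts in the lowest library of each.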
